A study of Homo sapiens with 8 samples.

Results

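The T cell attracting chemokines CXCL9, CXCL10, CXCL11, CCL5, CCL2 and CCL20 were followed in CAOV-3, OVCAR-3, SKOV-3 and DOV-13, which are 4 established lines of human ovarian cancer cells, with and without pI:pC. All probe sets whose only gene symbol in the platform annotation was one of these 6 genes were taken, which gave 8 of the 22215 probe sets tested on the arrays. CXCL11 had the probe sets 210163_at and 211122_s_at, CCL5 had 1405_i_at and 204655_at, and CXCL9 (203915_at), CXCL10 (204533_at), CCL2 (216598_s_at) and CCL20 (205476_at) had 1 each. The agent pI:pC, polyriboinosinic paired with polyribocytidylic acid, is a double-stranded RNA made in the laboratory, and per the labels it was put into the culture medium at several concentrations. For each line 1 array held RNA of pI:pC treated cells and 1 array RNA of untreated cells, so that there were 4 pI:pC arrays and 4 untreated arrays. All lines were grown in the same serum-containing medium. The labels give no dose, no exposure time and no passage for an array, and whether the RNA of an array came from a single culture is not stated either.

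Chemokines are small secreted proteins that guide leukocytes along a concentration gradient by binding receptors coupled to G proteins. CXCL9, CXCL10 and CXCL11 bind CXCR3, a receptor of activated T cells and natural killer cells, and are classically induced by interferon. CCL5 draws T cells and monocytes, CCL2 binds CCR2 and draws monocytes and memory T cells, and CCL20 binds CCR6 on memory and Th17 T cells and on immature dendritic cells. Double-stranded RNA is sensed by TLR3 in endosomes and by RIG-I and MDA5 in the cytosol, which activate interferon regulatory factors and NF-kB, and the genes of CXCL10 and CCL5 are known targets of both.

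Promoters are shown for those of the 6 genes that had one in the reference used, and 2 motifs tied to the pathway were searched in them. CCL5 and CCL2 had none there. RefSeq promoters (build GRCh38.p14, from 250 bases before to 50 bases after the annotated start) were held for 4 of the 6 genes, CXCL9 at chr4:76007460-76007759, CXCL10 at chr4:76023448-76023747 and CXCL11 at chr4:76036021-76036320, all on the minus strand of chromosome 4, and CCL20 at chr2:227813592-227813891 on the plus strand of chromosome 2. CXCL9, CXCL10 and CXCL11 are neighbours, with ART3 as the only other protein-coding gene starting between CXCL9 and CXCL11. CCL5 and CCL2 lie on chromosome 17. Each sequence is written 5′ to 3′ on the gene's strand, and capitals mark a match to the ISRE core (the interferon-stimulated response element, searched as GAAANNGAAA) or to the NF-kB consensus, both searched on both strands.
CXCL9: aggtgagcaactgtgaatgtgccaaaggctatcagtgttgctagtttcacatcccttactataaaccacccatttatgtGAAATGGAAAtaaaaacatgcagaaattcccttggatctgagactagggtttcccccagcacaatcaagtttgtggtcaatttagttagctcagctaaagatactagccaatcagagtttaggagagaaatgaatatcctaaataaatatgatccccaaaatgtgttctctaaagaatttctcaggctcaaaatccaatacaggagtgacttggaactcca
CXCL10: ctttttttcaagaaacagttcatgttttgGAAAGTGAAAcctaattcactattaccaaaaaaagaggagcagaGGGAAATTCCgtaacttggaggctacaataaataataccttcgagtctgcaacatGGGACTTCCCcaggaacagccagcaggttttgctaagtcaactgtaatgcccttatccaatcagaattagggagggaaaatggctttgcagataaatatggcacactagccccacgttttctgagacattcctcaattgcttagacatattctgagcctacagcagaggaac
CXCL11: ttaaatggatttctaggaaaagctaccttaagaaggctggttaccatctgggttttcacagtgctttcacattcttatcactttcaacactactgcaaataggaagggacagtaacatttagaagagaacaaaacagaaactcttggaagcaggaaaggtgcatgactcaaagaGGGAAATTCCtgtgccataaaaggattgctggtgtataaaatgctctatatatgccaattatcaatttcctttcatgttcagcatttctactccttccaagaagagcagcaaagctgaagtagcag
CCL20: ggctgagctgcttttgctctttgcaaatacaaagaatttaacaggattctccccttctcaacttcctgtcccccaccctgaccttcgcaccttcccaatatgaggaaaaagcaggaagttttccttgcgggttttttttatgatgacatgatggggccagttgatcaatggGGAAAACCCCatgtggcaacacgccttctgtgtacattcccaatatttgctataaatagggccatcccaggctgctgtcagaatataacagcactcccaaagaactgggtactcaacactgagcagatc

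The CXCL10 window held 1 match to the ISRE core, GAAAGTGAAA, which began 221 bases before the start, and 2 matches to the NF-kB consensus, GGGAAATTCC at 177 and GGGACTTCCC at 122 bases before the start. The CXCL11 window held the same GGGAAATTCC at 76 bases before the start and no match to the ISRE core as spelled. In the CXCL9 window the match was to the ISRE core, GAAATGGAAA at 171 bases before the start, and in the CCL20 window to the NF-kB consensus on the minus strand, GGAAAACCCC at 79 bases before the start. Among 35114 RefSeq promoters of the same length, 3.57% held the ISRE core and 5.91% the NF-kB consensus. No capital letters of these 2 motifs overlap. A match describes letters only and shows no binding.

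Without pI:pC, all 6 chemokines were near background in every line. The values are log2 expression levels made with RMA by the authors, and the arrays carry no detection call. A level was therefore called near background when it was at or below the 95th percentile, on the same array, of 64 probe sets of 48 genes specific to other tissues, such as retina, pancreas or muscle. That limit lay between 6.35 and 6.67 on the 8 arrays. All 32 untreated values (8 probe sets in 4 lines) were near background, and 28 of the 32 values on pI:pC arrays were. The 4 above it were CXCL10 in CAOV-3 and OVCAR-3 and both probe sets of CXCL11 in CAOV-3. Of all probe sets, 44.3% in SKOV-3, 48.8% in DOV-13, 47.2% in CAOV-3 and 47.7% in OVCAR-3 were above the limit on the pI:pC array, against 46.3%, 43.7%, 48.2% and 44.5% on the untreated array of the same line. The limit is therefore a high one, and a level below it does not show that a gene was silent.

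The untreated lines were close to each other in these genes. The range over the 4 untreated lines was between 0.10 (CCL5 1405_i_at) and 0.44 (CCL2) on the log2 scale, against a median range of 0.65 over all probe sets. Among the 10047 probe sets that were near background on all untreated arrays the median range was 0.31, and 68.4% had a range no larger than that of CCL2. The order of the untreated lines within a probe set rests on differences of this size, with 1 array per line and no error known.

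**Figure D1:**
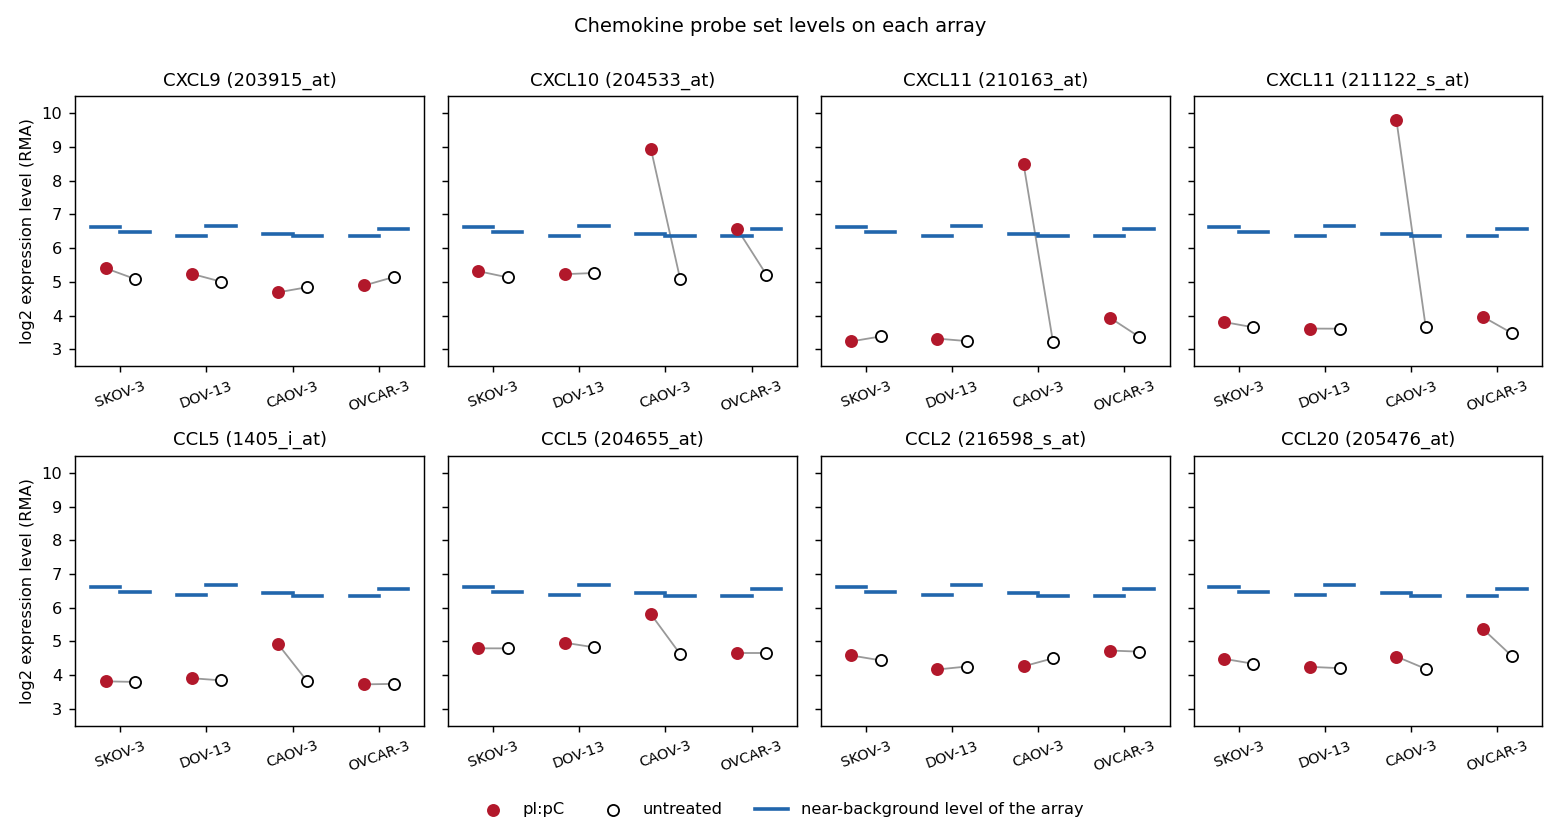
Log2 expression level (y axis) of each of the 8 chemokine probe sets in the 4 lines (x axis), with the pI:pC array as a filled point left of the untreated array as an open point, and the near-background level of each array as a blue bar. CXCL11 and CXCL10 on the CAOV-3 pI:pC array, between 8.48 and 9.79, stand far above the bars, and CXCL10 on the OVCAR-3 pI:pC array, at 6.58, stands just above its bar at 6.35.

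CXCL10, the interferon-induced CXCR3 ligand also called IP-10, had log2 levels of 5.32 in SKOV-3, 5.23 in DOV-13, 8.95 in CAOV-3 and 6.58 in OVCAR-3 with pI:pC, against 5.13, 5.26, 5.09 and 5.22 in the same lines untreated. The treated CAOV-3 and OVCAR-3 arrays were above every untreated array, while treated SKOV-3 lay just above and treated DOV-13 among the untreated values, so the groups overlapped. The difference was 3.87 in CAOV-3, a 14.6-fold higher RMA level, and 1.36 in OVCAR-3, 2.57-fold higher. In SKOV-3 it was 0.18 and in DOV-13 -0.03. The untreated levels were 1.27 (CAOV-3) and 1.34 (OVCAR-3) below the near-background level, so these folds compare RMA levels and do not measure a ratio of transcripts. On the percentile scale of the array, CXCL10 stood at 84.2 in treated CAOV-3 and 30.2 in untreated CAOV-3, and at 55.8 in treated OVCAR-3 and 32.0 in untreated OVCAR-3. These are bulk samples, so more responding cells and more transcript per cell cannot be told apart.

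CXCL11, the CXCR3 ligand known as I-TAC, showed the largest difference in RMA level of all 22215 probe sets in CAOV-3, from untreated levels near the floor of the scale. Its probe set 211122_s_at had log2 levels of 3.81 in SKOV-3, 3.62 in DOV-13, 9.79 in CAOV-3 and 3.97 in OVCAR-3 with pI:pC, against 3.65, 3.61, 3.66 and 3.48 untreated. The other probe set, 210163_at, had 3.24, 3.32, 8.48 and 3.94 with pI:pC, against 3.38, 3.25, 3.23 and 3.37 untreated. Only the treated CAOV-3 array was high, the treated OVCAR-3 array was slightly above all untreated ones, and the SKOV-3 and DOV-13 arrays stayed at the bottom of the scale. The differences in CAOV-3 were 6.13 (70.2-fold) for 211122_s_at and 5.26 (38.2-fold) for 210163_at, and ranked 1 and 2 among all probe sets, with CXCL10 at rank 4. In untreated CAOV-3 the probe sets stood at percentiles 3.7 and 0.1 of the array, and in treated CAOV-3 at 91.2 and 79.1. The untreated levels were 2.70 and 3.13 below the near-background level. RMA compresses low values, and floors differ between probe sets, so both the folds and the ranks depend on them.

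In OVCAR-3 both CXCL11 probe sets were higher by similar amounts, 0.49 for 211122_s_at and 0.57 for 210163_at. Their treated levels of 3.97 and 3.94 were still more than 2 log2 units below the near-background level of 6.35, at percentiles 7.8 and 7.3 of the array. The differences ranked 184 and 117 from the highest in OVCAR-3, whereas CXCL10 ranked 24. In DOV-13 the probe sets differed by 0.00 and 0.07, and in SKOV-3 they had opposite signs, 0.16 and -0.15.

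CXCL9, the third CXCR3 ligand, also called MIG, differed by no more than 0.32 in any line. It had log2 levels of 5.41 in SKOV-3, 5.24 in DOV-13, 4.69 in CAOV-3 and 4.89 in OVCAR-3 with pI:pC, against 5.09, 5.01, 4.84 and 5.14 untreated. Treated CAOV-3 lay below, treated OVCAR-3 within, and treated SKOV-3 and DOV-13 above the untreated values. Its differences were 0.32 in SKOV-3, 0.23 in DOV-13, -0.15 in CAOV-3 and -0.25 in OVCAR-3. Each sign rests on 1 array pair and a small difference, so no direction is read from it. All 8 values were at least 1.13 below the near-background level of their array, where RMA compresses differences.

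CCL5 (RANTES), which encodes an attractant of T cells and monocytes, was higher in CAOV-3 alone by more than 1 on the log2 scale. Probe set 204655_at had log2 levels of 4.80 in SKOV-3, 4.96 in DOV-13, 5.81 in CAOV-3 and 4.65 in OVCAR-3 with pI:pC, against 4.80, 4.83, 4.63 and 4.65 untreated. Probe set 1405_i_at had 3.82, 3.91, 4.92 and 3.73 with pI:pC, against 3.80, 3.85, 3.81 and 3.74 untreated. The treated CAOV-3 array was the highest of the 8 in both probe sets, while treated SKOV-3 and OVCAR-3 lay among or next to the untreated values and treated DOV-13 just above them. The CAOV-3 differences of 1.18 (2.27-fold) and 1.11 (2.15-fold) were 0.08 apart and ranked 132 and 152 among all probe sets of that line. Both treated levels were still near background, 0.62 and 1.51 below the limit of 6.43. In OVCAR-3, where CXCL10 was higher, the CCL5 differences were 0.00 and -0.01.

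CCL20 (MIP-3 alpha), the ligand of CCR6, had its largest difference in OVCAR-3. Its log2 levels were 4.49 in SKOV-3, 4.25 in DOV-13, 4.55 in CAOV-3 and 5.38 in OVCAR-3 with pI:pC, against 4.34, 4.21, 4.19 and 4.57 untreated. Each treated array was above its own untreated array, but the groups overlapped because untreated OVCAR-3 was above treated CAOV-3, SKOV-3 and DOV-13. The differences were 0.81 in OVCAR-3 (1.76-fold, rank 54 of all probe sets), 0.36 in CAOV-3, 0.15 in SKOV-3 and 0.04 in DOV-13. Its treated OVCAR-3 level was 0.97 below the near-background level.

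CCL2 (MCP-1), the CCR2 ligand, showed no line with a difference of 0.25 or more. It had log2 levels of 4.59 in SKOV-3, 4.17 in DOV-13, 4.26 in CAOV-3 and 4.73 in OVCAR-3 with pI:pC, against 4.44, 4.26, 4.50 and 4.70 untreated. The groups overlapped over nearly their whole range. The differences were 0.14, -0.09, -0.24 and 0.03 in the same order of lines, and every level was at least 1.61 below the near-background level of its array.

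By line, the chemokines counted as higher were CXCL10 and both CXCL11 probe sets in CAOV-3 and CXCL10 in OVCAR-3. A probe set was counted where the arrays of a line differed by 1 or more in log2 terms, provided that the higher of the values was no lower than the median probe set of the pair. With 1 array per condition this is a description with no test and no replicate check. In CAOV-3, 3 of the 8 chemokine probe sets were counted as higher, where 0.725% of all probe sets were. In OVCAR-3 it was 1 of 8, where 0.144% of all were. In SKOV-3 and DOV-13 it was 0 of 8, with 0.0045% and 0.018% of all probe sets counted. Of the 8, 0 were counted as lower in any line, where 0.135% of all were in CAOV-3, 0.009% in OVCAR-3, 0.0135% in SKOV-3 and 0.009% in DOV-13. Without the rule on level the CAOV-3 count was 5 of 8, through the CCL5 probe sets, where 0.774% of all probe sets were higher by at least 1. The OVCAR-3 count was 0 when a difference of at least 1.5 was asked for.

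The median difference of the 8 probe sets was 0.15 in SKOV-3, 0.05 in DOV-13, 1.14 in CAOV-3 and 0.26 in OVCAR-3. Over all probe sets it was 0.01, 0.04, -0.01 and -0.01 in these lines. The CAOV-3 median falls between the CCL5 probe sets, with CXCL10 and CXCL11 above it and CCL20, CXCL9 and CCL2 below.

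**Figure D2:**
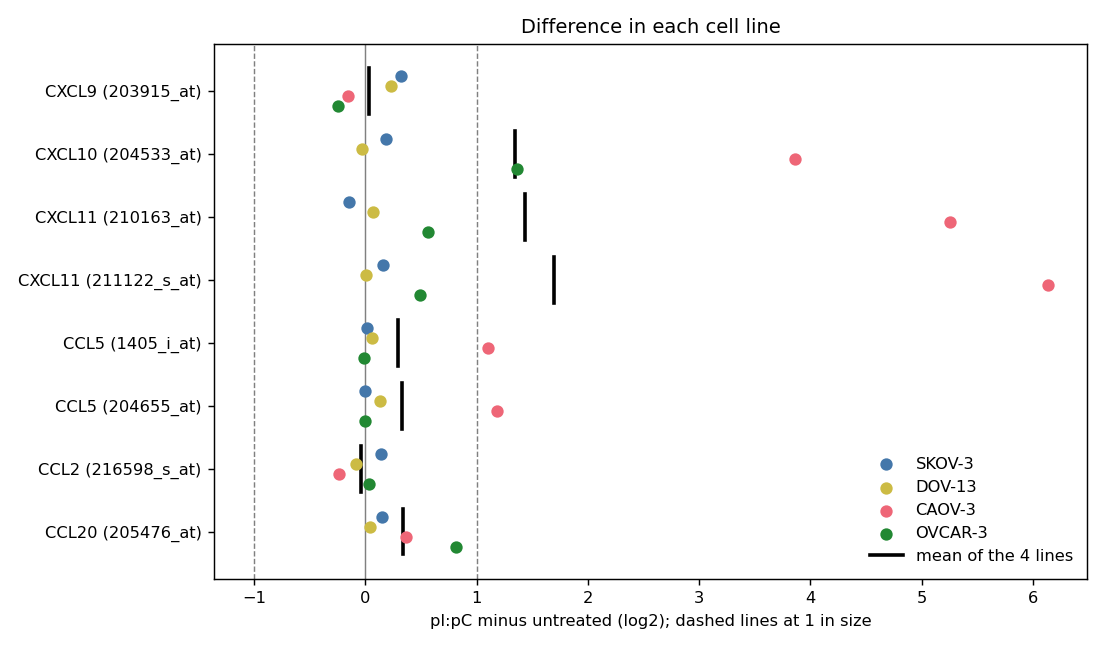
pI:pC minus untreated on the log2 scale (x axis) for each chemokine probe set (rows), with a point per cell line and a bar at the mean of the 4 lines. The CAOV-3 points of CXCL11 (6.13 and 5.26) and CXCL10 (3.87) lie far right of all others, and OVCAR-3 is the line with the highest point for CCL20 (0.81).

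**Figure D3:**
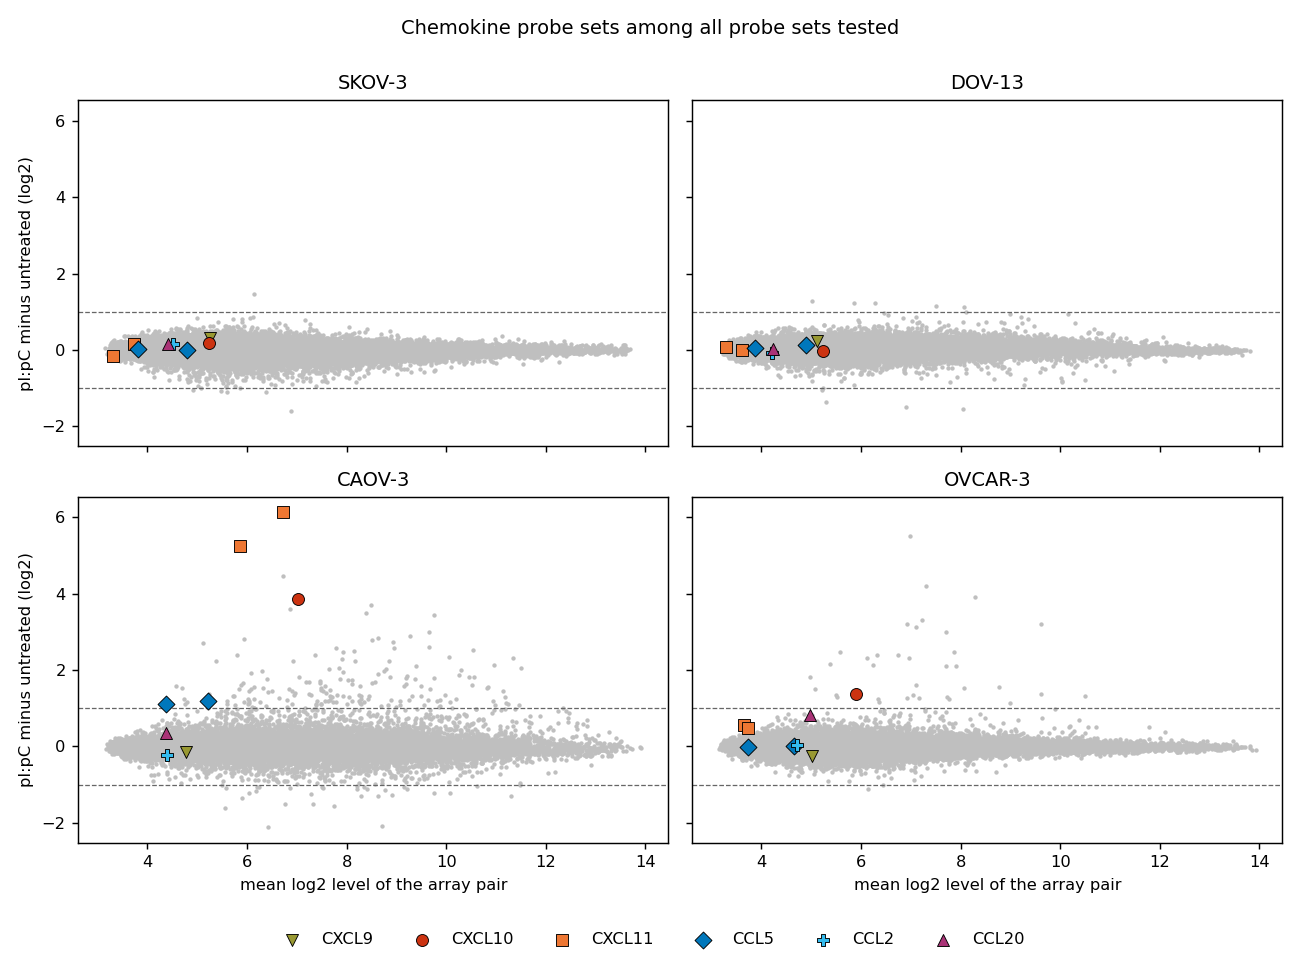
pI:pC minus untreated (y axis, log2) against the mean log2 level of the array pair (x axis) for all 22215 probe sets in grey and the chemokine probe sets as coloured symbols, with 1 panel per line and dashed lines at a difference of 1 in size. In CAOV-3 CXCL11 and CXCL10 are among the 4 largest differences, and in SKOV-3 and DOV-13 all chemokine symbols lie inside the grey cloud.

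Over the 4 lines together no chemokine passed the test. In limma's fit, which had cell line as a block and was adjusted over all 22215 probe sets, 0 of the 8 were called, as were 0% of all probe sets, and the adjusted p was 0.996 for each of the 8. At an unadjusted p under 0.05 there were 2 of the 8, CCL20 (0.0249) and CXCL10 (0.0463), and 855 of all probe sets. For both genes limma used a smaller spread than that of their own line differences, as it borrows from all probe sets. CXCL10 had a mean difference of 1.34 ± 1.79 (SD, n = 4 lines), CXCL11 1.70 ± 2.97 by 211122_s_at and 1.44 ± 2.56 by 210163_at, and CCL20 0.34 ± 0.34. CCL5 had 0.33 ± 0.57 by 204655_at and 0.29 ± 0.54 by 1405_i_at, CXCL9 0.04 ± 0.28 and CCL2 -0.04 ± 0.16. For all 8 probe sets the mean was smaller in size than its SD over the lines, for CCL20 by a narrow margin (0.341 against 0.343).

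Single lines carried these means. Without CAOV-3 the mean was 0.50 for CXCL10, 0.22 and 0.16 for CXCL11, and 0.05 and 0.02 for CCL5. For CCL20 the mean was 0.18 without OVCAR-3 and 0.33 without CAOV-3. CCL20 and CXCL11 by 211122_s_at were higher with pI:pC in 4 of 4 lines, where 6.74% of all probe sets were, though CXCL11 differed by only 0.004 in DOV-13. By 210163_at CXCL11 was higher in 3 of 4 lines, with a difference of -0.15 in SKOV-3. For 0 of the 8 did the pI:pC and untreated arrays separate completely, where 0.32% of all probe sets did.

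Of the other chemokine ligand genes measured, 28 in number, 17 had a positive mean difference, where 6427 of all 11963 named genes did, and their median was 0.01, against 0.01 over all named genes. Of the 28, 0 passed limma's test in either direction. Since 0 of all 22215 probe sets passed, such a 0 here or in the lists below does not show that genes were stable. The neutrophil attractants CXCL8, CXCL2 and CXCL1 had the largest means, at 1.46 ± 1.45, 0.88 ± 0.49 and 0.87 ± 0.83 (SD, n = 4 lines), or 0.80, 0.78 and 0.51 without CAOV-3. In DOV-13, where the T cell attracting chemokines differed by 0.23 at most, CXCL8 was higher by 1.13, CXCL1 by 0.99 and CXCL2 by 0.91. These CXCL8 values are from its probe set with the highest mean, which stood at 7.50 there without pI:pC, above the limit of 6.67. Its other probe set was below that limit, at 5.98, and was higher by 0.98 with pI:pC.

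Most receptor genes of the chemokine system were near background in these lines. Of 20 measured, 1 or 2 were above the limit on pI:pC arrays and 1 or 2 on untreated arrays, 0 passed limma's test in either direction, and the median mean difference was 0.05. CXCR3, the receptor of CXCL9, CXCL10 and CXCL11, had 0.09 ± 0.10 (SD, n = 4 lines), CCR1 0.02 ± 0.09, CCR2 0.08 ± 0.25 and CCR6 0.09 ± 0.06. The largest means were those of CCR10 (0.20 ± 0.15), CCR9 (0.14 ± 0.10) and CCR7 (-0.11 ± 0.19). CXCR3 levels were 5.29 to 5.54 on pI:pC arrays and 5.28 to 5.42 on untreated arrays.

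Of 12 sensor and adaptor genes of the double-stranded RNA pathway measured, 0 passed limma's test in either direction. A positive mean was found for 9, where 6427 of all 11963 named genes had one, and the median of the 12 was 0.22. By the rule on size and level, 3 of the 12 were counted as higher in CAOV-3, where 111 of 11963 named genes were, 2 in OVCAR-3, where 27 were, and 0 in SKOV-3 and DOV-13. IFIH1 (MDA5) was higher by 2.46 in CAOV-3 and 2.47 in OVCAR-3, with 0.38 in SKOV-3 and -0.08 in DOV-13. Its untreated level was 6.69 in CAOV-3, above the limit of 6.36, but 4.35 in OVCAR-3, below the limit of 6.56. The CAOV-3 and OVCAR-3 differences of IFIH1 thus start from unlike levels, and IFIH1 was near background on all SKOV-3 and DOV-13 arrays. RIGI was higher by 1.70 in CAOV-3 and 0.91 in OVCAR-3, with -0.30 in SKOV-3 and 0.38 in DOV-13. The kinase gene EIF2AK2 (PKR) was higher by 0.53 in CAOV-3 and 1.13 in OVCAR-3, with -0.03 in SKOV-3 and 0.05 in DOV-13. TLR3 had log2 levels of 7.67 in treated and 6.67 in untreated CAOV-3, and between 3.82 and 4.53 on the arrays of all other lines. The adaptor gene MAVS had a mean of -0.10 ± 0.16 (SD, n = 4 lines). Whether any of these levels bears on the chemokines was not tested.

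Among the transcription factors that act on chemokine promoters, 14 of 18 measured had a positive mean, where 6427 of all 11963 named genes did. The median of the 18 was 0.10, and 0 passed in either direction. IRF7 was higher by 1.16 in CAOV-3 and 1.29 in OVCAR-3, with 0.12 in SKOV-3 and -0.16 in DOV-13. IRF9, a subunit of the interferon-activated factor ISGF3, was higher by 0.81 in CAOV-3 and 2.11 in OVCAR-3, with -0.03 in SKOV-3 and -0.21 in DOV-13. The untreated levels of IRF7 and IRF9 were 9.51 and 9.42 in CAOV-3, and between 6.46 and 7.55 in the other lines. NFKB2, which encodes an NF-kB subunit, was higher by 1.5 in CAOV-3 and differed by -0.19 in OVCAR-3, 0.07 in SKOV-3 and 0.24 in DOV-13. IRF1 had a mean of 0.18 ± 0.07 (SD, n = 4 lines), NFKB1 0.21 ± 0.18, RELA 0.12 ± 0.10 and IRF3 0.02 ± 0.12.

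Interferon genes, whose products induce CXCL9, CXCL10 and CXCL11, had mean differences near 0. The 14 measured had a median mean difference of 0.01, and 0 passed in either direction. IFNB1 had -0.04 ± 0.12 (SD, n = 4 lines) and IFNG, the classical inducer of CXCL9, -0.00 ± 0.11, and IFNA4, IFNW1 and IFNA10 had 0.11 ± 0.10, 0.11 ± 0.11 and 0.11 ± 0.11. At levels near background such values do not show that an interferon gene was not induced. IFNG levels were 4.29 to 4.43 on pI:pC arrays and 4.25 to 4.48 on untreated arrays, all near background. Of 17 other cytokine and NF-kB target genes, 15 had a positive mean, where 6427 of all 11963 named genes did, and 0 passed. CXCL8 is given above, and IL6 had 0.77 ± 1.23 and PTX3 0.75 ± 1.32. Without CAOV-3 the mean was 0.16 for IL6 and 0.10 for PTX3. Of 9 genes that cleave or bind chemokines 0 passed, with SDC4 at 0.45 ± 0.78 (0.07 without CAOV-3), MMP1 at 0.12 ± 0.08, CTSG at 0.10 ± 0.14 and DPP4, the protease that trims the ends of CXCR3 ligands, at -0.04 ± 0.25.

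**Figure D4:**
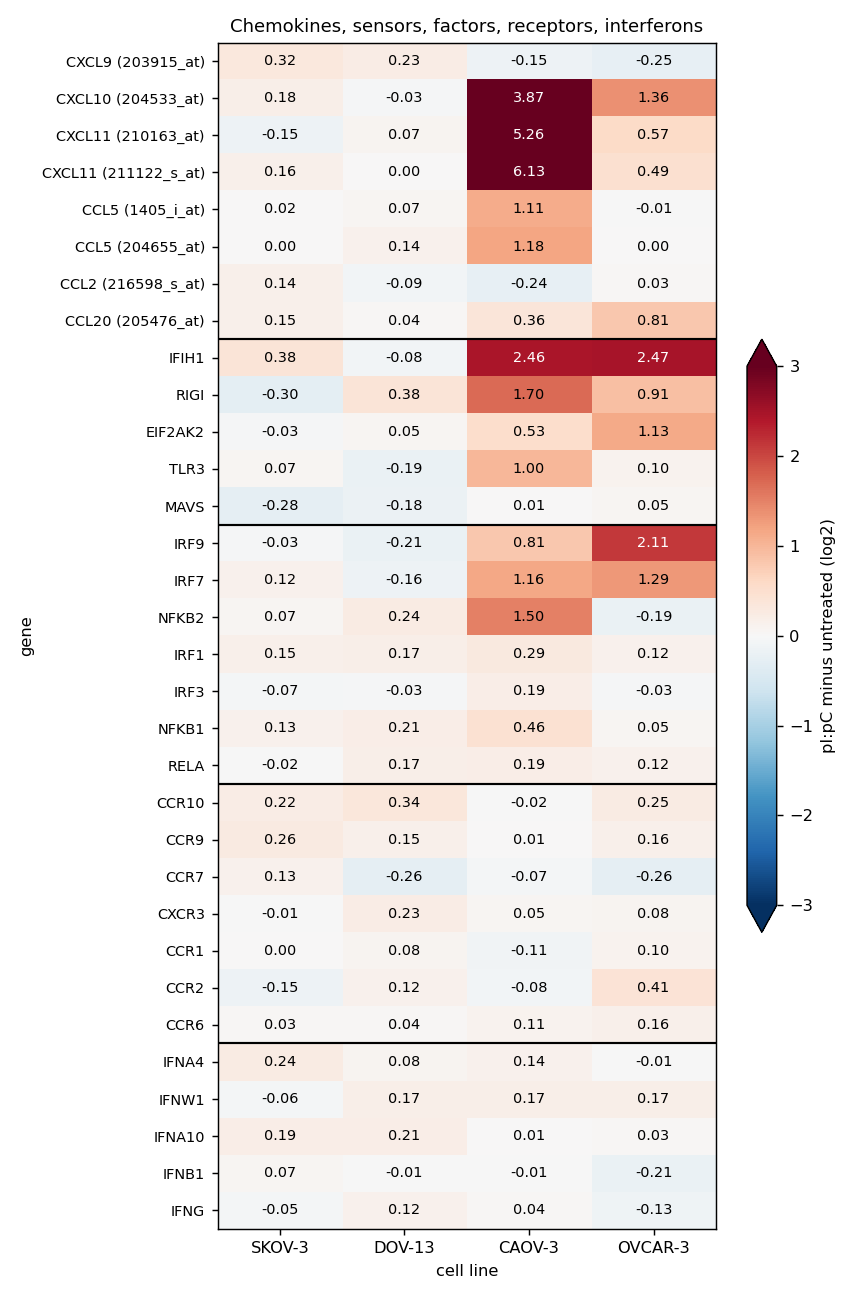
pI:pC minus untreated on the log2 scale (colour and printed value, colour ending at 3 in size) in each cell line (columns) for the chemokine probe sets and for named sensors and adaptors, transcription factors, chemokine receptors and interferon genes (rows, groups parted by lines). IFIH1, RIGI, IRF7 and IRF9 are higher in both CAOV-3 and OVCAR-3, as CXCL10 is, while receptors and interferons stay within 0.41 of 0.

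The genes with differences most like those of CXCL10 were OAS1 and OAS2, which encode antiviral enzymes that sense double-stranded RNA, and CXCL8. Likeness was the root mean square difference over the 4 line differences, among 189 probe sets of 155 genes counted in any line. Such candidates came mostly from CAOV-3, where 161 of all probe sets were counted as higher, against 32 at most in another line. CXCL10 and CXCL11 also differed most there, so the measure depends strongly on the CAOV-3 value. Likeness to CXCL10 was 0.46 for OAS1 (differences of 0.00 in SKOV-3, 0.15 in DOV-13, 3.48 in CAOV-3 and 2.15 in OVCAR-3). It was 0.55 for OAS2 (0.09, 0.06, 3.60 and 0.30 in the same lines) and 0.63 for CXCL8 (-0.03, 1.13, 3.45 and 1.28). CXCL8 was thus unlike CXCL10 in DOV-13, where CXCL10 had -0.03. For CXCL11 by 211122_s_at likeness was 1.22 for CXCL10, 1.27 for OAS2 and 1.31 for CXCL8, here by its other probe set. By 210163_at the same genes were nearest, at 0.82, 0.85 and 0.92.

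Cell identity markers were checked against the labels. KRT8 and KRT18, keratins of simple epithelia, had log2 levels of 10.53 to 12.59 on all arrays, and PAX8, a factor of the Müllerian lineage, 8.06 to 10.60. EPCAM was near background in DOV-13, at 5.94 with pI:pC and 5.42 without. MUC16 (CA125) was near background in SKOV-3, DOV-13 and CAOV-3, at 4.26, 4.35 and 5.38 with pI:pC and 4.13, 4.05 and 4.80 without, while OVCAR-3 had 9.52 and 9.59. Of 13 epithelial and ovarian markers, 7 in SKOV-3, 6 in DOV-13, 11 in CAOV-3 and 13 in OVCAR-3 were above the near-background level on pI:pC arrays, against 8, 6, 11 and 13 on untreated arrays, with log2 summed levels of 13.33 to 14.59 and 13.33 to 14.67. Of 17 T cell and leukocyte markers, 1 or 2 were above it on pI:pC arrays and 1 to 3 on untreated arrays, with log2 summed levels of 9.31 to 9.50 and 9.30 to 9.69. PTPRC (CD45), the defining gene of leukocytes, had 4.11 to 4.41 on all arrays. CD14, a monocyte gene of the same list, was above the near-background level of 6.36 in untreated CAOV-3, at 7.06. In treated CAOV-3 it was at 6.15, below the level of 6.43. Of 8 endothelial markers, 0 or 1 were above it on pI:pC arrays and 0 on untreated arrays, with 8.17 to 8.48 and 8.16 to 8.38.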

How the data were processed

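The deposited table holds log2 expression levels for 22277 probe sets on 8 arrays. Per the submitters' processing notes the authors used RMA, which corrects background, normalizes between arrays and summarises probes by its usual definition. Neither its version nor the set of arrays it was run on is given in the sources used here. The array medians lay between 6.19 and 6.30. Precision is limited by the number of arrays. After removal of 62 array controls, 22215 probe sets were fitted with lmFit and eBayes of limma 3.58.1 in R 4.3.3, with the cell line as a block, 3 residual and 4.59 prior degrees of freedom, two-sided, with Benjamini-Hochberg adjustment and a threshold of 0.05. The pairing comes from the cell line in the labels, and deviations from the group means correlated at 0.936 to 0.965 within every pair. The p-values rest on the spread between lines, which eBayes draws towards a value common to all probe sets. For CCL20 and CXCL10 the spread used was smaller than that of their own line differences. Nothing is known of culture or technical error within a line.

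Names came from the platform annotation, in which 19064 probe sets carry 1 symbol. In lists a gene stands for its probe set with the highest mean. The members and lists were chosen with earlier results of these data known. From each list the 3 genes with the largest mean difference in size are named, with a set of receptors, sensors, factors and interferon genes fixed by name, and the 3 genes most like each counted member. KRT8, KRT18, PAX8 and PTPRC fall outside this rule and were picked from the marker lists after the values were seen. No coordinates other than those of promoters are given. The fit was tested on simulated data. Alternatives were no block, a level filter, 1 probe set per gene, quantile normalization, centring, a trended and robust eBayes, each line left out, other differences and level rules, and other near-background limits.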

Additional observations from a re-analysis of the deposited data

Results flagged for a closer look

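In 7 of 24 groups of 4 values (levels in the pI:pC arrays, levels in the untreated arrays and differences, for each chemokine probe set), the highest value lay apart from the other 3 by a share of the range above Dixon's 95% critical value, which chance gives in about 1 of 20 groups. The groups share arrays and genes, so they are not independent. All 7 concern CAOV-3. For CXCL11 these were the pI:pC level of 8.48 and the difference of 5.26 by 210163_at, and the pI:pC level of 9.79 and the difference of 6.13 by 211122_s_at. For CCL5 these were the pI:pC level of 4.92 and the difference of 1.11 by 1405_i_at, and the difference of 1.18 by 204655_at. No untreated value and no value of CXCL9, CXCL10, CCL2 or CCL20 was set apart in this way.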

How the results depend on the processing

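No chemokine passed the adjusted threshold in limma with the cell line as a block, and the count was also 0 with no replicate block, with 1 probe set per gene, quantile normalization, centring on array medians, a trended and robust eBayes, and without each line in turn (smallest adjusted p 0.724, without SKOV-3). With only the 11108 probe sets at or above the median mean level, none of the 8 was left to test. The count in CAOV-3 moved to 5 with no rule on level, and that in OVCAR-3 to 0 with a difference of at least 1.5. The other counts and the near-background counts kept within 1.5 times of their value under each alternative run, and CXCL10 in OVCAR-3 was near background when the highest of the other tissue genes set the limit (29 of 32 values). The sign of the mean turned for CXCL9 without SKOV-3 (-0.057) and without DOV-13 (-0.029), and for CCL2 without CAOV-3 (0.03), and the cause was not tested. With each line left out in turn, the mean ran between 0.504 and 1.803 for CXCL10, 0.22 and 2.26 for CXCL11 by 211122_s_at, 0.16 and 1.97 by 210163_at, 0.05 and 0.44 for CCL5 by 204655_at, 0.02 and 0.40 by 1405_i_at, 0.18 and 0.44 for CCL20, -0.057 and 0.132 for CXCL9, and -0.097 and 0.03 for CCL2. Likeness of CXCL11 to its nearest gene, CXCL10, was 1.22, and 0.82 by the other probe set, which was added after seeing the data. Levels below the near-background limit restrict what can be seen of CXCL9, CCL2, CCL5 and CCL20, and of CXCL11 outside treated CAOV-3.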

Other observations

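Of the reference genes, the other tissue genes and the cell type markers, 0 passed limma's test in either direction. Since 0 of all 22215 probe sets passed, this does not show that these genes were stable. Reference genes had a median mean difference of -0.00 over 9 genes, with TBP at 0.13 ± 0.05 (SD, n = 4 lines), YWHAZ at -0.04 ± 0.09 and HPRT1 at -0.03 ± 0.08. The 48 other tissue genes had 0.01, with SLC12A3 at 0.21 ± 0.41, GNAT1 at 0.19 ± 0.18 and NPPA at 0.16 ± 0.22. T cell and leukocyte markers had -0.01 over 17 genes, with CD14, a monocyte gene, at -0.33 ± 0.40, MS4A1 at -0.16 ± 0.26 and CD2 at 0.14 ± 0.14. CD14 had a log2 level of 6.15 in treated and 7.06 in untreated CAOV-3, and 4.23 to 4.83 on the arrays of the other lines. Endothelial markers had 0.07 over 8 genes, with ROBO4 at 0.23 ± 0.21, EMCN at 0.13 ± 0.15 and PECAM1 at 0.08 ± 0.16. Epithelial and ovarian markers had 0.04 over 13 genes, with MUC16 at 0.24 ± 0.28, MUC1 at 0.17 ± 0.19 and EPCAM at 0.16 ± 0.27.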
